A study of Mus musculus with 2 samples.

Results

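The genes described here are 10 genes of antigen presentation by the major histocompatibility complex (MHC), chosen by name: 5 class I genes (B2m, H2-K1, H2-D1, Tap1 and Tapbp) and 5 class II genes (H2-Aa, H2-Ab1, H2-Eb1, Cd74 and Ciita). They are 10 of 53251 genes that could be read in 192 single bone marrow cells of C57BL/6 mice aged 8 weeks, all carrying the Fucci cell cycle reporter. The cells came from 4 sorting gates of 48 cells each: mAG+, mKO2neg, mKO2low and mKO2high. The mAG protein accumulates in S, G2 and M phases and the mKO2 protein in G0 and G1, so mAG+ cells are in the dividing part of the cycle and mKO2high cells carry the strongest G0/G1 signal. One library held the mAG+ and mKO2neg cells and the other the mKO2low and mKO2high cells. Transcripts were amplified by a modified Smart-seq2 method that enriches 3' ends. No animal is named in the labels, so each gate is 1 sample without replicates, no test was run, and intervals give counting error only.

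MHC class I molecules sit on nearly all nucleated cells and show peptides made inside the cell to CD8+ T cells. Each is a heavy chain (H2-K1 or H2-D1 here) bound to beta-2-microglobulin (B2m). Peptides enter the endoplasmic reticulum through the TAP transporter, of which Tap1 is a subunit, and tapasin (Tapbp) bridges that transporter to the empty heavy chain. Class II molecules are known mainly from B cells, dendritic cells and macrophages and show peptides from endocytosed proteins to CD4+ T cells. H2-Aa and H2-Ab1 encode the alpha and beta chains of I-A, and H2-Eb1 encodes the beta chain of I-E, whose alpha chain gene is defective in C57BL/6 mice. Cd74, the invariant chain, fills the class II groove until loading, and Ciita is the transcriptional activator that class II expression requires. Blood stem and progenitor cells are known to carry class I and, in part, class II molecules.

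Promoters of 5 members are shown because the levels of these chains are set beside each other across cells below. The windows are the 180 bases before the transcription start in RefSeq (GRCm38.p6), written 5' to 3' on the gene's strand. They lie at chr2:122147507-122147686 (+) for B2m, chr17:34000348-34000527 (-) for H2-K1, chr17:35262914-35263093 (+) for H2-D1, chr17:34287824-34288003 (-) for H2-Aa and chr17:34305687-34305866 (+) for H2-Eb1. Capitals mark matches, on either strand, to ATTGG (the core of the Y box bound by NF-Y), TGACG (the core of the X2 box) and AANTGAAA (a form of the site of interferon regulatory factors). A match is a description of the letters, and binding was not tested.
B2m: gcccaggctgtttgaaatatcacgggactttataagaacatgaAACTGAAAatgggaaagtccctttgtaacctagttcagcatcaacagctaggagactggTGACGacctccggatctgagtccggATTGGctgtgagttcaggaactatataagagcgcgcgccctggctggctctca
H2-K1: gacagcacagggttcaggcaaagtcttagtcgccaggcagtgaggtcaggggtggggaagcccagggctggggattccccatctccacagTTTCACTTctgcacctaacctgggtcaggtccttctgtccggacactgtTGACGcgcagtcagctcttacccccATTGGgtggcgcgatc
H2-D1: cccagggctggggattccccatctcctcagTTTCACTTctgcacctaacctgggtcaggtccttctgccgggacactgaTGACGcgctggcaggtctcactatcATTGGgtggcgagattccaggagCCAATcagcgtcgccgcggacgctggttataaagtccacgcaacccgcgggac
H2-Aa: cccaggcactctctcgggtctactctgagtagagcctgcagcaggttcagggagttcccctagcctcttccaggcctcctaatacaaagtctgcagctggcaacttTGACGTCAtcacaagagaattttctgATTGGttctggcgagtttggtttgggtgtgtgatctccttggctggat
H2-Eb1: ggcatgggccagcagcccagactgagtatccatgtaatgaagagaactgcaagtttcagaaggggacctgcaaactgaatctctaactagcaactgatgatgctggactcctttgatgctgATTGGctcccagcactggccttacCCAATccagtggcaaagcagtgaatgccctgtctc
All 3 motifs occurred in the B2m, H2-K1 and H2-D1 windows. H2-Aa held ATTGG, with its first base at -48 from the start, and a TGACG match on each strand, at -74 and -71, that overlap each other. H2-Eb1 held ATTGG on each strand, at -59 and -35, and neither other motif. Of the class I windows not printed, that of Tap1 held TGACG only and that of Tapbp ATTGG only. Over 32851 RefSeq promoters, windows of the same length held ATTGG in 27.5%, TGACG in 14.8% and AANTGAAA in 3.84%. H2-K1 and H2-D1 shared an unbroken run of 40 bases that contains their AANTGAAA match. These genes are close copies of each other and of the H2-Q genes, so how reads were divided among them is uncertain.

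The names in the deposited tables did not lie on the counts of their own genes, and each gene was therefore read from the deposited row of the gene just before it in GENCODE vM21 order. The row labelled B2m held 0 counts, while the row before it, labelled Patl2, held 56396. Other genes that nearly every cell transcribes behaved alike: Actb had 25599 counts when read this way, against 136 in the row with its own label, and Malat1 had 67146 against 0. The labels name the tissue and the reporter gates but no cell type. Of 12 stem and progenitor markers, 11 or 12 were counted in each gate, with Kit, the stem cell factor receptor, in 45 mAG+, 40 mKO2neg, 41 mKO2low and 33 mKO2high cells. Single cells held from 315 to 184672 counts in mAG+, 1 to 210516 in mKO2neg, 7436 to 117134 in mKO2low and 0 to 83162 in mKO2high. The gate totals were 2791584 in mAG+ and 1608630 in mKO2neg, with 1703263 in mKO2low and 934036 in mKO2high. Levels are given as CPM, the gene's counts scaled to a common total for every gate.

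One member needed a second reading. The rule takes H2-Ab1 from the row labelled H2-Ob, which held 6 counts, all in 1 mKO2neg cell with no count of H2-Aa, H2-Eb1 or Cd74. A row labelled Gm20506 is absent from vM21. RefSeq places the start of that gene (chromosome 17, 34247335 to 34259341, GRCm38.p6) between the starts of H2-Ob and H2-Ab1. The gene overlaps H2-Ob (34238903 to 34254414) and H2-Ab1 (34257689 to 34269419), and how reads were divided among them was not tested. The row labelled Gm20506 held 488 counts. Of its 57 positive cells 31 also had H2-Aa, which is 54.4% of its cells and 58.5% of the H2-Aa cells. Both readings of H2-Ab1 are given below, the second chosen after the values were seen. Class II sums, ratios and shares use the first reading unless the row labelled Gm20506 is named. Of 105 deposited rows absent from vM21, 60 could not be placed by symbol, so a like misreading of another gene was not tested.

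Class I transcripts were abundant in every gate and highest in mKO2high. Summed over the 5 class I genes, they made up 1.17% of all counts in mAG+ and 1.30% in mKO2neg, with 1.30% in mKO2low and 1.96% in mKO2high. Class II transcripts were scarce in every gate, at 64.1 CPM in mAG+ and 117 in mKO2neg, with 213 in mKO2low and 958 in mKO2high. Class I counts outnumbered class II counts 182-fold in mAG+ and 111-fold in mKO2neg, with 61.2-fold in mKO2low and 20.5-fold in mKO2high. Per kilobase of exon, the same ratio was 349 in mAG+ and 214 in mKO2neg, with 99.4 in mKO2low and 34.3 in mKO2high. These per-kilobase ratios use the whole exon length, although the method reads 3' ends. In bulk sums of this kind, fewer cells with a transcript and less transcript per cell cannot be told apart, and the values per cell are given with each gene.

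B2m, the shared light chain (chromosome 2, 122147686 to 122153083, plus strand), had the most counts of the 10 genes. Its gate-sum level was 7061 CPM (95% interval 6963 to 7160) in mAG+ and 8004 (7866 to 8143) in mKO2neg, with 7443 (7314 to 7574) in mKO2low and 11918 (11698 to 12142) in mKO2high. Among cells with at least 5000 counts, the lowest, median and highest B2m levels were 4294, 6950 and 11981 CPM in 45 mAG+ cells. They were 3242, 8248 and 13051 CPM in 43 mKO2neg cells.

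In 48 mKO2low cells they were 436, 7260 and 13627 CPM, and in 39 mKO2high cells 3323, 11263 and 18530 CPM. All 4 gate sums were apart by more than counting error. The mKO2high median lay above the upper quartile of each other gate, which was 8331 CPM in mAG+ and 9821 in mKO2neg, with 9093 in mKO2low. The mKO2high lower quartile of 8774 CPM lay below the upper quartiles of mKO2neg and mKO2low, and the ranges of all 4 gates overlapped. B2m was counted in 47 mAG+, 44 mKO2neg, 48 mKO2low and 45 mKO2high cells of 48. After every cell was thinned to 5000 counts it was found in 100% of the cells of each gate, and its level was 7218 CPM in mAG+ and 8112 in mKO2neg, with 7704 in mKO2low and 11610 in mKO2high.

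The heavy chain genes had the same highest gate. H2-K1 (chromosome 17, 33996017 to 34000347, minus strand) stood at 2631 CPM in mAG+ and 2641 in mKO2neg, with 3118 in mKO2low and 4191 in mKO2high. Its median per cell was 2883 CPM in mAG+ and 2692 in mKO2neg, with 3227 in mKO2low and 3987 in mKO2high. Cells ran from 0 to 5746 CPM in mAG+, 1162 to 6455 in mKO2neg, 1386 to 5842 in mKO2low and 1979 to 7287 in mKO2high. So mKO2high had the highest sum and median, and all gates overlapped. H2-D1 (chromosome 17, 35262730 to 35267499, plus strand) stood at 1630 CPM in mAG+ and 2036 in mKO2neg, with 2101 in mKO2low and 3113 in mKO2high. Its median per cell was 1751 CPM in mAG+ and 1969 in mKO2neg, with 2146 in mKO2low and 2902 in mKO2high. Cells ran from 510 to 2698 CPM in mAG+, 614 to 5242 in mKO2neg, 1076 to 4527 in mKO2low and 736 to 7333 in mKO2high, again with overlap. For H2-K1, the gate-sum intervals of mAG+ (2571 to 2692) and mKO2neg (2562 to 2721) overlapped. For H2-D1, those of mKO2neg (1967 to 2107) and mKO2low (2033 to 2171) overlapped. Every other pair of neighbours in these orders was apart by more than counting error, which is not the spread between mice. Because the heavy chains are close copies, their sum is the safer reading, and it gave 4261 CPM in mAG+ and 4677 in mKO2neg, with 5219 in mKO2low and 7305 in mKO2high.

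**Figure D1:**
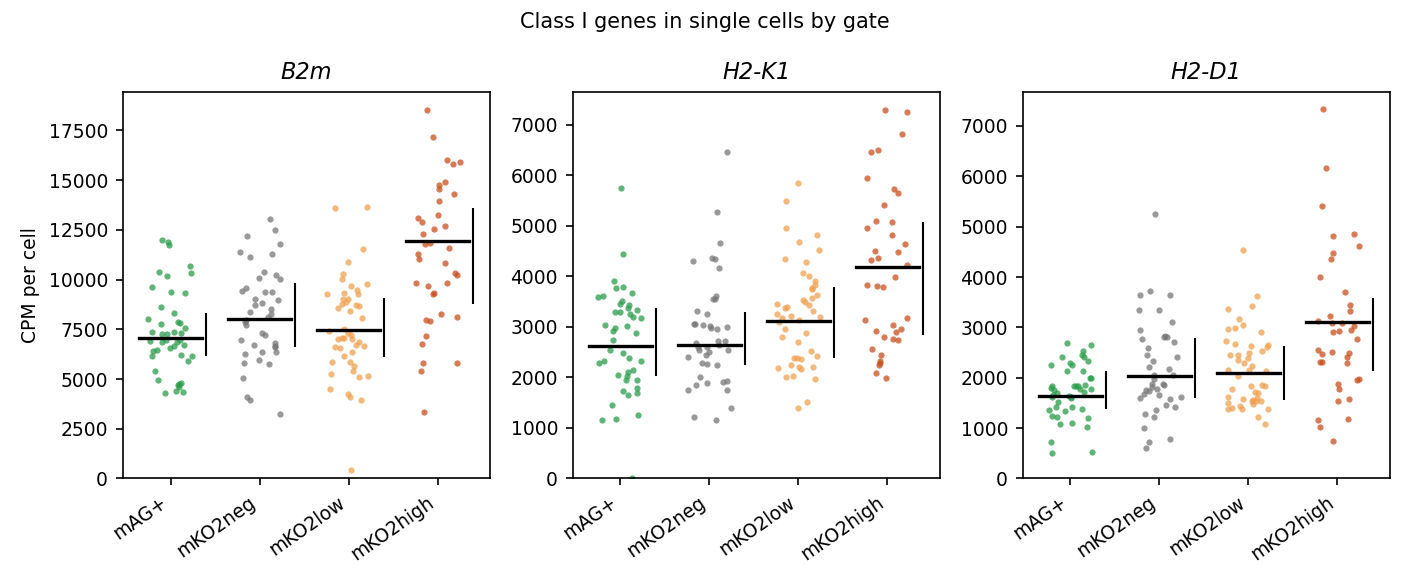
Level of B2m, H2-K1 and H2-D1 in CPM (y axes, from 0) in each cell with at least 5000 counts (points), by gate. Horizontal lines are the gate-sum CPM of all 48 cells and vertical lines run from the lower to the upper quartile of the cells shown. The mKO2high cells have the highest median for each gene, 11263 CPM for B2m, with ranges that overlap those of the other gates.

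The peptide-loading genes were far lower and did not share one order. Tap1 (chromosome 17, 34187553 to 34197225, plus strand) stood at 173 CPM (95% interval 158 to 190) in mAG+ and 131 (114 to 150) in mKO2neg, with 133 (116 to 151) in mKO2low and 113 (92.9 to 137) in mKO2high. Tap1 was thus lowest where B2m was highest. The mAG+ interval lay above the others, and those of the other gates overlapped. This order did not hold at equal depth: with 5000 counts per cell, Tap1 was at 120 CPM in mAG+ and 121 in mKO2neg, with 133 in mKO2low and 144 in mKO2high, each from 26 to 32 counts. Tapbp (chromosome 17, 33915899 to 33929292, plus strand) stood at 195 CPM (179 to 212) in mAG+ and 221 (198 to 245) in mKO2neg, with 206 (185 to 229) in mKO2low and 266 (233 to 301) in mKO2high. Of these, neighbouring gates overlapped in their intervals except mKO2high, whose interval lay above that of mKO2low and overlapped that of mKO2neg. Tap1 overlaps Psmb9 on the opposite strand, B2m overlaps Patl2 and Tapbp overlaps Zbtb22 and Gm19412. Whether strand was used in counting is not given in the sources used here, so such reads cannot be told apart.

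Class II transcripts were found in a minority of cells for each gene, and at a median of 0 CPM in all 4 gates. H2-Aa (chromosome 17, 34282744 to 34287823, minus strand) stood at 28.3 CPM (95% interval 22.4 to 35.3) in mAG+ and 36.7 (27.9 to 47.3) in mKO2neg, with 56.9 (46.2 to 69.5) in mKO2low and 234 (204 to 268) in mKO2high. Its highest cell reached 484 CPM in mAG+ and 1118 in mKO2neg, with 1109 in mKO2low and 1632 in mKO2high. H2-Aa was counted in 14 mAG+, 9 mKO2neg, 15 mKO2low and 15 mKO2high cells. The mKO2high level was the highest and came from no more cells than the mKO2low level. The neighbours mAG+ and mKO2neg, and mKO2neg and mKO2low, overlapped in their intervals.

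Cd74 (chromosome 18, 60803848 to 60812652, plus strand) had the most counts of the class II genes. Its level was 28.3 CPM (22.4 to 35.3) in mAG+ and 59.7 (48.3 to 72.9) in mKO2neg, with 144 (127 to 164) in mKO2low and 611 (562 to 664) in mKO2high. It was counted in 12 mAG+, 13 mKO2neg, 21 mKO2low and 17 mKO2high cells, and its highest cell was at 306 CPM in mAG+ and 860 in mKO2neg, with 5416 in mKO2low and 5450 in mKO2high. No intervals of Cd74 overlapped between gates. H2-Eb1 (chromosome 17, 34305867 to 34316674, plus strand) stood at 7.52 CPM (4.66 to 11.5) in mAG+ and 8.08 (4.30 to 13.8) in mKO2neg, with 11.2 (6.72 to 17.4) in mKO2low and 112 (91.9 to 136) in mKO2high. The mAG+, mKO2neg and mKO2low intervals of H2-Eb1 overlapped, and it was counted in 6 mAG+, 4 mKO2neg, 6 mKO2low and 8 mKO2high cells. Gm20513 runs antisense over H2-Eb1, so reads of the pair cannot be told apart.

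H2-Ab1, read by the rule, had 0 counts in mAG+, mKO2low and mKO2high and 3.73 CPM in mKO2neg. A count of 0 in 48 cells allows a share of cells with a count of up to 6.25% when taken as 3 of the 48 cells, and of up to 7.40% by the exact 95% interval. The row labelled Gm20506 stood instead at 23.3 CPM (18.0 to 29.7) in mAG+ and 91.4 (77.2 to 107) in mKO2neg, with 55.2 (44.6 to 67.5) in mKO2low and 195 (168 to 225) in mKO2high. It was counted in 17 mAG+, 14 mKO2neg, 16 mKO2low and 10 mKO2high cells. Ciita (chromosome 16, 10480059 to 10528418, plus strand), the activator, had 15 counts in 3 mKO2neg cells, or 9.32 CPM (5.22 to 15.4), and 0 in mAG+, mKO2low and mKO2high. The floor of 3 counts per gate corresponds to 1.07 CPM in mAG+, 1.76 in mKO2low and 3.21 in mKO2high, so a Ciita level under these values was not detectable at this depth. Ciita overlaps Dexi on the opposite strand.

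**Figure D2:**
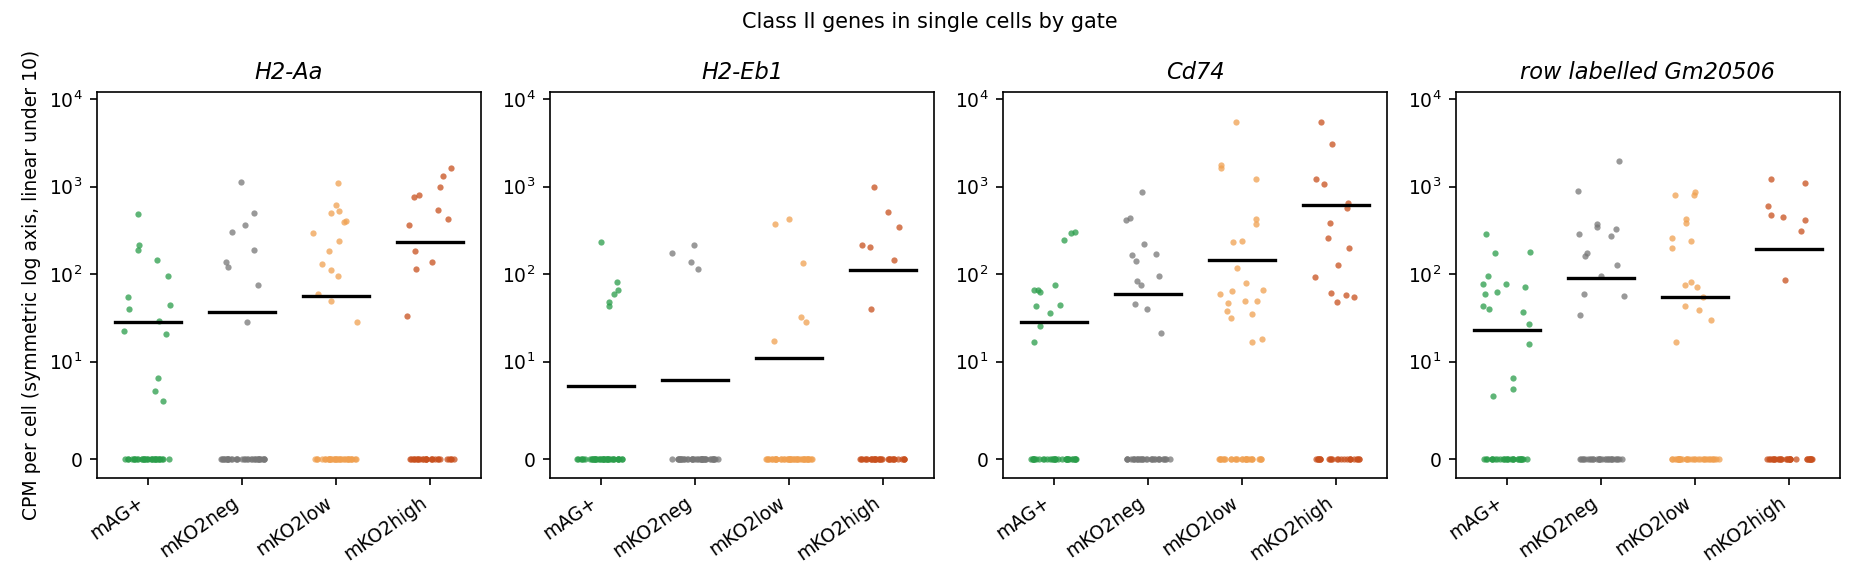
Level of H2-Aa, H2-Eb1, Cd74 and the row labelled Gm20506 in CPM (y axes, logarithmic above 10 and linear below) in each cell with at least 5000 counts (points), by gate. Horizontal lines are the gate-sum CPM of all 48 cells. Most cells of every gate lie at 0, and the highest Cd74 cells, at 5416 CPM in mKO2low and 5450 CPM in mKO2high, stand far above their gate's level.

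Class II counts were concentrated in few cells. The cell with most class II counts held 33.0% of its gate's class II counts in mAG+ and 23.8% in mKO2neg, with 29.3% in mKO2low and 57.1% in mKO2high. The 5 highest cells together held 67.0% in mAG+ and 68.8% in mKO2neg, with 72.1% in mKO2low and 89.8% in mKO2high. The highest mKO2high cell had 385 counts of Cd74, 70 of H2-Eb1 and 56 of H2-Aa together. It had 85 counts in the row labelled Gm20506 and 0 of H2-Ab1 by the first reading. Its class I level of 33025 CPM was also the highest among the 39 mKO2high cells with at least 5000 counts. It had 12 counts of Kit, 17 of Ly6a, 19 of Procr, 21 of Mecom and 24 of Hlf, all genes of blood stem and progenitor cells. Most mKO2high cells had these genes: Kit, Ly6a and Hlf were counted in 33 of 48 each, Procr in 35 and Mecom in 39. The cell with most class II counts had 0 of Cd79a, Ighm, Itgax, Siglech, Irf8 and Csf1r. These zeros do not set the cell apart. Cd79a, Itgax, Siglech and Csf1r were at 0 in the whole mKO2high gate, where Ighm was counted in 1 cell and Irf8 in 2. The type of this cell was not tested. Without this cell, Cd74 in mKO2high was at 215 CPM and H2-Eb1 at 40.5 CPM.

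Markers of the cell types best known for class II ranged from 0 to over 1000 CPM. Over 7 B cell markers the summed level was 276 CPM in mAG+ and 94.5 in mKO2neg, with 101 in mKO2low and 84.6 in mKO2high, and Cd79a and Ms4a1 were at 0 in both mKO2low and mKO2high. One mAG+ cell held 621 of the 1173 B cell marker counts of all 192 cells, 267 of them Ighm. This cell had 1 count of H2-Aa, 0 of H2-Eb1 and Cd74, and 9 in the row labelled Gm20506. Of 7 dendritic cell markers, 3 were counted in mAG+ and 3 in mKO2neg, with 2 in mKO2low and 4 in mKO2high. Siglech and Xcr1 were at 0 in all gates, and Cst3, which many cell types express, gave most of the summed 520 CPM in mAG+ and 536 in mKO2neg, with 466 in mKO2low and 426 in mKO2high. Of 6 monocyte and macrophage markers, whose sum was 595 CPM in mAG+ and 1044 in mKO2neg, with 1030 in mKO2low and 1058 in mKO2high, Lyz2 alone was counted in mKO2low and mKO2high. The 6 neutrophil markers summed to 266 CPM in mAG+ and 484 in mKO2neg, with 83.4 in mKO2low and 99.6 in mKO2high. A single mKO2neg cell held 692 of the 1756 neutrophil marker counts of all 192 cells, 577 of them Camp. In mAG+, a single cell held 290 of the 327 counts of S100a8. The T cell markers Cd3e, Cd3g and Trac were at 0 in every gate, and 4 megakaryocyte markers summed to 62.3 CPM in mAG+ and 183 in mKO2neg, with 135 in mKO2low and 287 in mKO2high. In mKO2high, where class II levels were highest, Cd79b of the B cell list was at 71.7 CPM in 14 cells, Cst3 at 411 CPM in 36 cells and Lyz2 at 1058 CPM in 39 cells. The part of these cell types in the class II levels was not tested.

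Class II genes shared cells. Of all 192 cells, 90 had a count of H2-Aa, H2-Eb1 or Cd74, 26 had counts of 2 of them and 12 of all 3. H2-Aa and Cd74 were together in 32 cells, which is 60.4% of the 53 H2-Aa cells and 50.8% of the 63 Cd74 cells. Of 24 cells with H2-Eb1, 18 also had H2-Aa or Cd74. The number of cells with all 3 was 2 in mAG+ and 1 in mKO2neg, with 3 in mKO2low and 6 in mKO2high. As a description over the 175 cells with at least 5000 counts, with each gate's mean taken off log2(CPM + 1), Pearson's r was 0.48 between H2-Aa and Cd74, 0.43 between H2-Aa and H2-Eb1 and 0.38 between H2-Eb1 and Cd74. The row labelled Gm20506 gave 0.50 with H2-Aa, 0.39 with H2-Eb1 and 0.37 with Cd74. These points share libraries and differ in depth, and deeper cells have more genes counted.

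For the class I chains r was 0.43 between B2m and H2-D1, 0.42 between H2-K1 and H2-D1 and 0.18 between B2m and H2-K1 by the same measure. The 7 class I pairs with Tap1 or Tapbp gave from 0.02 (H2-D1 with Tapbp) to 0.13 (Tap1 with Tapbp). Across the classes r was 0.17 between B2m and H2-Aa and 0.12 between B2m and Cd74. Among 8760 genes counted in at least 20 of these cells, those most like B2m were Rsrp1 at r = 0.42, Rps25 at 0.34, Gm2830 at 0.33, Rpl30 at 0.33 and Uqcrh at 0.33. Those most like the class II sum of H2-Aa, H2-Ab1, H2-Eb1 and Cd74 were Zbtb20 at 0.28, Txlng at 0.27, Unc50 at 0.26, Dnajb1 at 0.25 and Sgsm3 at 0.24.

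Within the library of mKO2low and mKO2high cells, both classes were lower in mKO2low than in mKO2high. Class II was lower by more in the gate sums, but with equal weight for each cell the log2 ratio was -0.57 for class I and -0.54 for class II. Equal weight takes in near-empty cells, such as an mKO2high cell with 31 counts, 4 of them B2m. At 5000 counts per cell, which leaves such cells out, the ratios were -0.53 for class I and -0.55 for class II. B2m was at -0.77 with equal weight and -0.59 at 5000 counts per cell. The summed class I level was 13001 CPM in mKO2low and 19602 CPM in mKO2high, a log2 ratio of -0.59. B2m had a log2 ratio of -0.68 (95% interval -0.72 to -0.64), H2-D1 of -0.57 (-0.64 to -0.50) and H2-K1 of -0.43 (-0.49 to -0.37). Tapbp was at -0.36 (-0.60 to -0.13), and the interval of Tap1 at 0.22 (-0.11 to 0.57) included 0. Of the 5 class I genes, 0 were past 2-fold in either direction, while 15% of the 10899 genes with at least 10 counts over both gates were at least 2-fold lower and 19.6% at least 2-fold higher. The class I median was -0.43, against 0.05 over all these genes.

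Class II summed to 213 CPM in mKO2low and 958 CPM in mKO2high, a log2 ratio of -2.17. H2-Eb1 had a log2 ratio of -3.25 (-4.12 to -2.62), Cd74 of -2.08 (-2.30 to -1.86) and H2-Aa of -2.03 (-2.40 to -1.69). These 3 of the 5 class II genes had enough counts, and all 3 were at least 2-fold lower, beside the background of 15%. H2-Ab1 and Ciita were at 0 in both gates. The row labelled Gm20506 was at -1.81 (-2.19 to -1.45). The size of this difference moved with 1 cell and with the weight given to each cell. Without the mKO2high cell with most class II counts the summed log2 ratio was -1.06, with Cd74 at -0.57, H2-Aa at -1.72 and H2-Eb1 at -1.79. That reading trims mKO2high only, while the highest mKO2low cell held 29.3% of its gate's class II counts. Without the top cell of each gene in both gates the summed log2 ratio was -1.61. Cd74 was then at -1.20, H2-Aa at -2.05 and H2-Eb1 at -2.39. With equal weight for each cell, Cd74 was at -0.27, H2-Aa at -0.85 and H2-Eb1 at -1.45. With each cell thinned to 5000 counts, which also weights cells equally and leaves out 9 mKO2high cells, class II summed to 358 CPM in mKO2low and 528 CPM in mKO2high, a log2 ratio of -0.55, and Cd74 was at -0.44. The class I log2 ratio was -0.51 without the mKO2high cell with most class II counts and -0.53 at equal depth.

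**Figure D3:**
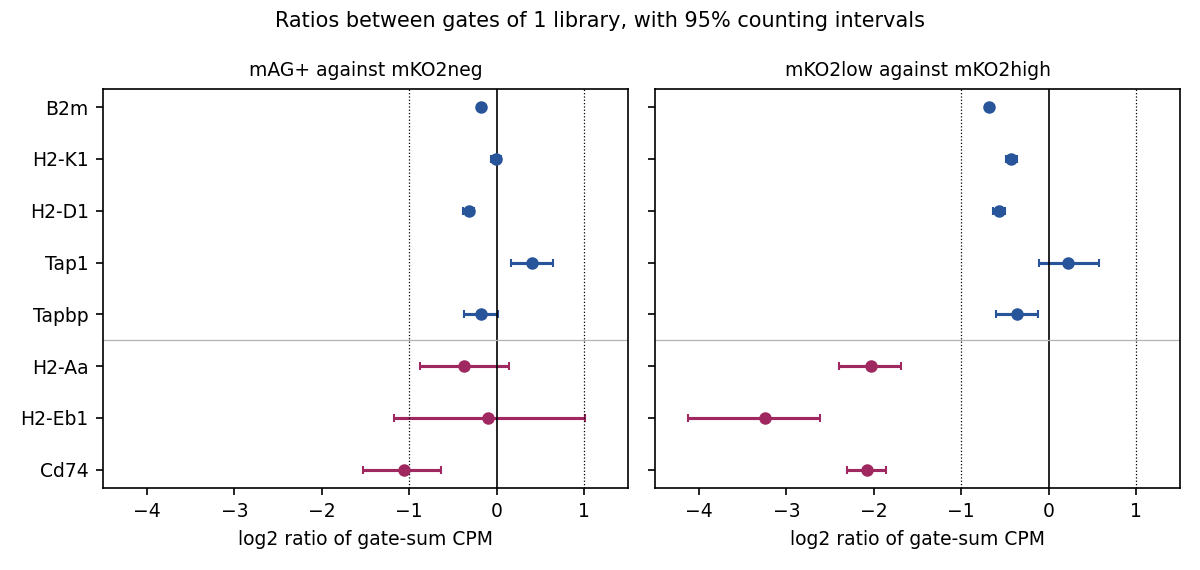
Log2 ratio of gate-sum CPM (x axes) for the 8 members with at least 10 counts in both comparisons within a library, class I in blue above the line and class II in red below it. Points are ratios, bars are 95% counting intervals and dotted lines mark 2-fold. H2-Aa, H2-Eb1 and Cd74 lie below -2 in mKO2low against mKO2high, while the class I genes lie between -0.68 and 0.22.

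Within the library of mAG+ and mKO2neg cells, both class sums were lower in mAG+. Class I summed to 11690 CPM in mAG+ and 13032 CPM in mKO2neg, a log2 ratio of -0.16. H2-D1 was at -0.32 (-0.39 to -0.26) and B2m at -0.18 (-0.21 to -0.15), while the intervals of Tapbp at -0.18 (-0.37 to 0.02) and H2-K1 at -0.01 (-0.06 to 0.05) included 0. Tap1 was higher in mAG+, at 0.40 (0.17 to 0.64), but at -0.01 with 5000 counts per cell. Again 0 of 5 class I genes were past 2-fold, beside 21.2% of 12111 genes at least 2-fold higher and 14.6% at least 2-fold lower. The class I median was -0.18, against 0.06 over all genes.

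Over all 5 class II genes the sum was 64.1 CPM in mAG+ and 117 CPM in mKO2neg, a log2 ratio of -0.87. The 4 genes with at least 10 counts summed to 64.1 CPM in mAG+ and 114 CPM in mKO2neg, a log2 ratio of -0.82. Cd74 was at -1.06 (-1.52 to -0.63), from 79 counts in mAG+ and 96 in mKO2neg. H2-Aa at -0.37 (-0.88 to 0.14) and H2-Eb1 at -0.10 (-1.17 to 1.02) had intervals that included 0. Ciita was 8.68-fold lower in mAG+, with its 0 counts there taken as the floor of 3 counts per gate. The upper end of its log2 interval was -2.64, and 9 of its 15 mKO2neg counts were in 1 cell. H2-Ab1, with 6 counts, was under the minimum of 10. The 4 measured class II genes, Ciita among them, had a median of -0.72. Cd74 and Ciita, 2 of the 4, were past 2-fold, beside 14.6% of all genes. Ciita, with 0 counts in mAG+, met the minimum of 10 only through mKO2neg. Its place past 2-fold was fixed by that filter and is no result about the members. Without Ciita the middle value was that of H2-Aa, at -0.37. The row labelled Gm20506 was at -1.95 (-2.42 to -1.54), with 65 counts in mAG+ and 147 in mKO2neg. With this row as H2-Ab1 the class II log2 ratio was -1.23. By the first reading, with cells thinned to 5000 counts, the class II log2 ratio was -1.43, from 16 counts in mAG+ and 43 in mKO2neg.

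The other pairs of gates lie in different libraries, where gate and library cannot be told apart. For mKO2neg against mKO2low the class I sum was 13032 CPM in mKO2neg and 13001 CPM in mKO2low, a log2 ratio of 0.00. B2m was at 0.10 (0.07 to 0.14) and H2-K1 at -0.24 (-0.30 to -0.18). None of the 5 class I genes was past 2-fold, and of 4 measured class II genes 1 was at least 2-fold higher and 1 at least 2-fold lower, beside 15.3% and 16.7% of 11371 genes. These were Ciita and Cd74, with Cd74 at -1.27 (-1.63 to -0.93). Ciita was 5.29-fold higher in mKO2neg with mKO2low taken at the floor, and the lower end of its log2 interval was 1.93. H2-Aa was at -0.63 (-1.13 to -0.15) and H2-Eb1 at -0.44 (-1.60 to 0.63). The row labelled Gm20506 went the other way, at 0.72 (0.34 to 1.12).

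Between mAG+ and mKO2high, class I summed to 11690 CPM in mAG+ and 19602 CPM in mKO2high, a log2 ratio of -0.75. H2-D1 was at -0.93 (-1.0 to -0.87), B2m at -0.76 (-0.79 to -0.72), H2-K1 at -0.67 (-0.73 to -0.62) and Tapbp at -0.44 (-0.66 to -0.22). Tap1 was the exception at 0.61 (0.31 to 0.93), and stood at -0.25 at equal depth. Class II was at -3.89 in sum, with Cd74 at -4.41 (-4.79 to -4.09), H2-Eb1 at -3.81 (-4.65 to -3.22) and H2-Aa at -3.03 (-3.44 to -2.67). Of the members, 0 of 5 class I and 3 of 3 measured class II genes were at least 2-fold lower, beside 17.1% of 11846 genes lower and 26.2% higher. At equal depth the class II sum was at -2.81, and without the mKO2high cell with most class II counts at -2.78.

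Depth per cell differed between gates, so shares were also read at 5000 counts per cell. With all counts and the row labelled Gm20506 as H2-Ab1, class II was counted in 31 mAG+, 24 mKO2neg, 33 mKO2low and 22 mKO2high cells. By the first reading, and with all counts, a class II gene was counted in 24 of 48 mAG+, 20 mKO2neg, 27 mKO2low and 21 mKO2high cells. At equal depth the share was 26.7% (95% interval 14.6 to 41.9) of 45 mAG+ cells, 34.9% (21.0 to 50.9) of 43 mKO2neg, 29.2% (17.0 to 44.1) of 48 mKO2low and 38.5% (23.4 to 55.4) of 39 mKO2high cells. For Cd74 it was 15.6% (6.49 to 29.5) in mAG+ and 23.3% (11.8 to 38.6) in mKO2neg, with 22.9% (12.0 to 37.3) in mKO2low and 30.8% (17.0 to 47.6) in mKO2high.

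The H2-Aa share at equal depth was 8.89% (2.48 to 21.2) in mAG+ and 16.3% (6.81 to 30.7) in mKO2neg, with 18.8% (8.95 to 32.6) in mKO2low and 25.6% (13.0 to 42.1) in mKO2high. All these intervals overlapped between gates, so a difference in the share of class II cells was not detectable at this number of cells. Of the loading genes, Tapbp was counted at equal depth in 51.1% of mAG+, 53.5% of mKO2neg, 56.2% of mKO2low and 51.3% of mKO2high cells. Tap1 was counted in 33.3% of mAG+, 27.9% of mKO2neg, 39.6% of mKO2low and 46.2% of mKO2high cells. With all counts Tap1 had instead been found in 75% of mAG+ and mKO2low cells and 50% of mKO2neg and mKO2high cells, the deeper and the shallower gate of each library.

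**Figure D4:**
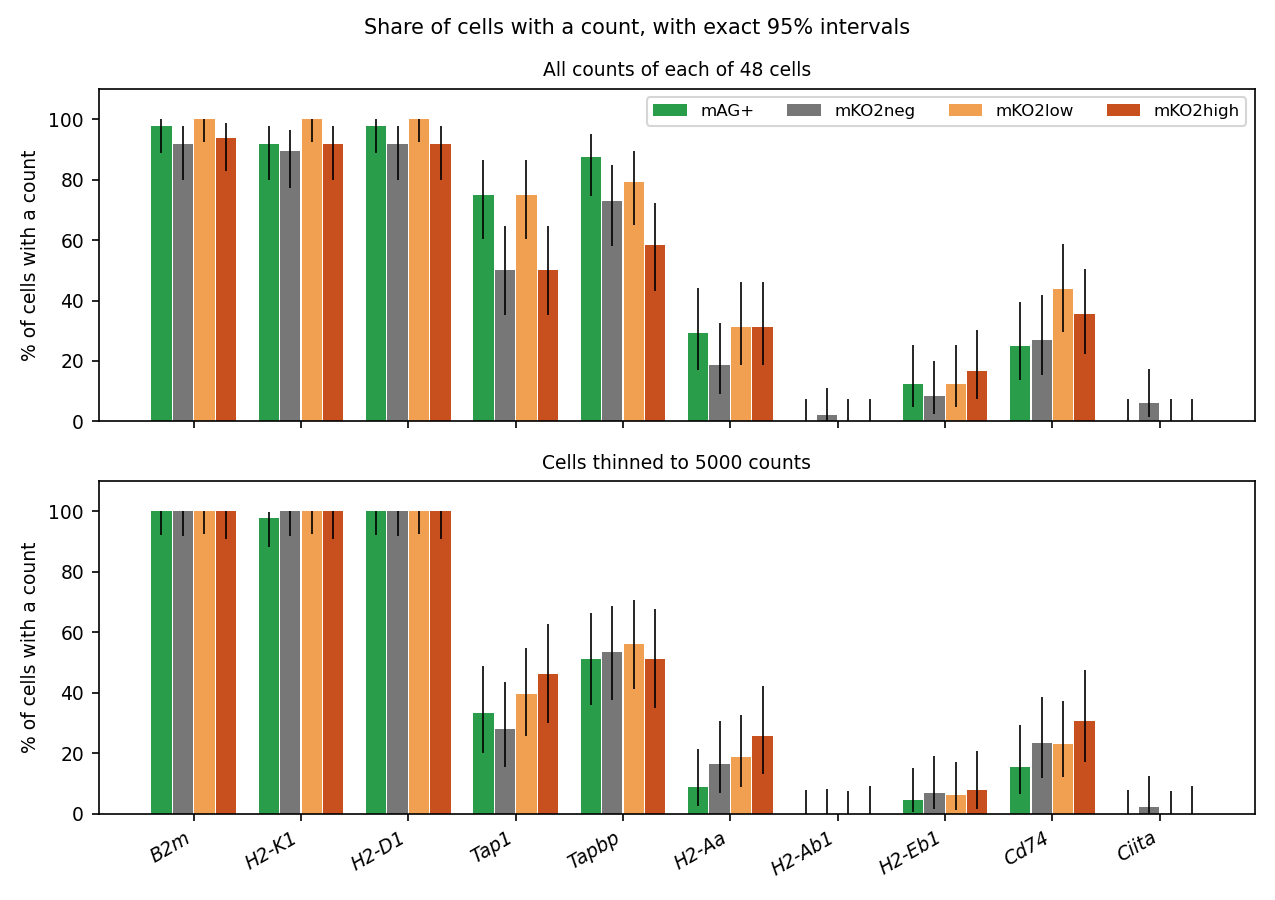
Share of cells with a count of each member (y axes, percent) by gate, with all counts of the 48 cells (top) and after thinning to 5000 counts (bottom). Bars are shares and lines exact 95% intervals. Tap1 is at 75% of mAG+ and 50% of mKO2neg cells with all counts, and at 33.3% of mAG+ and 27.9% of mKO2neg cells after thinning, and B2m is at 100% in every gate after thinning.

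Over the other genes of both pathways the directions were mixed. Of 21 further class I pathway genes, all were measured in mAG+ against mKO2neg, with 10 higher, 11 lower and a median log2 ratio of -0.02, against 0.06 over all genes. Past 2-fold there was 1 of the 21, Tapbpl, a tapasin-like editor of peptides, at -1.08 (-1.56 to -0.64), beside the background of 14.6% of genes lower and 21.2% higher. In mKO2low against mKO2high 20 were measured, with 6 higher, 14 lower and a median of -0.12, against 0.05 over all genes. None of these 20 was past 2-fold, beside 15% of genes lower and 19.6% higher. Psmb8, a catalytic subunit of the immunoproteasome, stood at 592 CPM in mAG+ and 619 in mKO2neg, with 562 in mKO2low and 627 in mKO2high.

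Calr, the chaperone calreticulin, was higher in mKO2low than in mKO2high, opposite to the class I chains, at a log2 ratio of 0.89 (0.69 to 1.11). Psme1, a subunit of the PA28 proteasome activator, was at -0.50 (-0.65 to -0.36) in the same comparison. H2-Q7, a nonclassical class I gene, was at 0.28 (0.12 to 0.45) there and at 0.18 (0.06 to 0.29) in mAG+ against mKO2neg. H2-Q7 is a close copy of the heavy chain genes, so its reads may be split with theirs.

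Of 18 further class II pathway genes, 12 were measured in each comparison within a library. In mAG+ against mKO2neg 4 were higher and 8 lower, with a median of -0.34. Past 2-fold were 2 higher and 1 lower, beside 21.2% of genes higher and 14.6% lower. Ctsl, a lysosomal protease that trims the invariant chain, was at -2.79 (-3.26 to -2.40), with 57 counts in 10 mAG+ cells and 232 counts in 25 mKO2neg cells. Ifi30, a thiol reductase of antigen processing, was at 2.92 (1.88 to 4.55), with 87 counts in mAG+, 40 of them in 1 cell, and 6 in mKO2neg. Rfx5, a subunit of the factor that binds the class II X box, was at 1.23 (-0.23 to 3.40), an interval that included 0.

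In mKO2low against mKO2high 5 were higher and 7 lower, with a median of -0.22. Past 2-fold were 1 higher and 2 lower, beside 19.6% of genes higher and 15% lower. Nfyb, a subunit of NF-Y, was at 1.16 (0.51 to 1.90). Ctss, the protease that finishes invariant chain cleavage in B and dendritic cells, was at -1.73 (-2.65 to -0.98), from 20 counts in 6 mKO2low cells and 38 counts in 3 mKO2high cells. Lgmn, a lysosomal endopeptidase, had 0 counts in mKO2low and 12 in mKO2high, 7.29-fold lower with mKO2low taken at the floor. The upper end of its log2 interval was -2.34.

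The peptide exchange factor genes H2-DMb1 and H2-DMb2 were higher in mKO2low than in mKO2high, opposite to the class II chains. H2-DMb1 was at 0.93 (0.50 to 1.40) and H2-DMb2 at 0.57 (0.27 to 0.89). Their partner chain gene H2-DMa, read from the row labelled Brd2, was at 0 in all 4 gates, with 10 counts in its own-label row. Whether H2-DMa was misread, as H2-Ab1 may be, was not tested. H2-Ea-ps was at 0 in all 4 gates, and H2-Eb2 had 1 count. Nfyc, another NF-Y subunit, was at -0.92 (-1.45 to -0.42). Nfya, the NF-Y subunit that contacts the CCAAT sequence, was at 0.46 (-0.37 to 1.38), an interval that included 0.

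**Figure D5:**
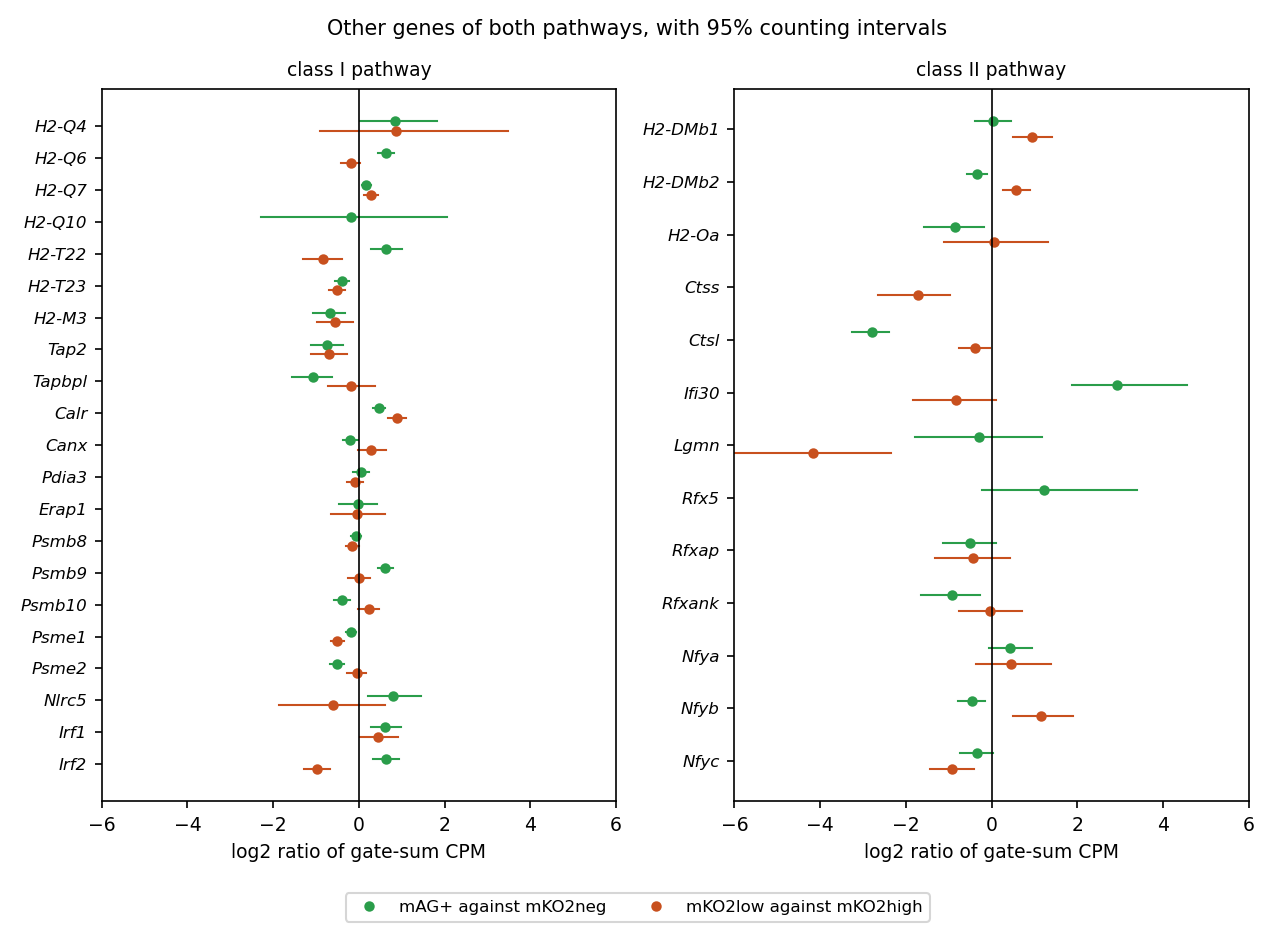
Log2 ratio of gate-sum CPM (x axes) for the other class I pathway genes (left) and class II pathway genes (right) with at least 10 counts, in mAG+ against mKO2neg (green) and mKO2low against mKO2high (orange). Lines are 95% counting intervals, ending at the panel's edge for Lgmn, which had 0 counts in mKO2low. Ctsl at -2.79 and Ifi30 at 2.92 stand apart in mAG+ against mKO2neg, and most class I pathway genes lie within 1 unit of 0.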

How the data were processed

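The authors deposited raw counts for every gene row in 192 cells (48 per gate), with a table of each cell's library and gate. Per the submitters' processing notes, HISAT2, HTSeq 0.11.3, Seurat and the build mm10 were used, with no role or order given. The sources used here do not give the annotation release, the strand setting, the filters or any use of molecular identifiers. The median depth of a cell was 45177 in mAG+ and 24633 in mKO2neg, with 26852 in mKO2low and 14510 in mKO2high.

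Of 53378 rows, 53273 were found in GENCODE vM21 (GRCm38), and 105 rows with 0.222% of counts were not. Each gene was read from the row of the gene just before it in that order. Counts were summed per gate and scaled to CPM with Python 3.11.15, pandas 2.3.3 and scipy 1.17.1. Log2 ratios used a prior count of 1 and are given for genes with at least 10 counts over both gates. Called means past 2-fold. Intervals are exact at 95%: Poisson for CPM, conditional binomial for ratios and Clopper-Pearson for shares. Reads without molecular identifiers are not independent molecules, so intervals and the floor of 3 counts per gate cover counting error only. Thinning to 5000 counts left out 3 mAG+, 5 mKO2neg, 0 mKO2low and 9 mKO2high cells. The ratio and interval steps were checked on simulated data. No doublet caller was run, as cells were collected one by one per the labels.

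The 10 members, the pathway lists (21 class I and 18 class II genes) and the markers were chosen with earlier results of these data known. Named pathway genes are those past 2-fold within a library and up to 4 others with most counts in each list. The alternatives, among them edgeR 4.0.16 TMM factors and DESeq2 1.42.0 size factors, are given in the closing section. Some listed marker genes are not reported here.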

Additional observations from a re-analysis of the deposited data

How the results depend on the processing

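The directions of the class sums depended little on scaling: TMM factors, DESeq2 size factors, a prior count of 0.5, no filter on low counts and a filter on cells (44 mAG+, 43 mKO2neg, 48 mKO2low and 43 mKO2high cells passing) moved none of them beyond counting error. Of 88 alternative values of class sums, 56 stayed within counting error, 31 moved and 1 reversed. Of 322 alternative values of single members, 224 stayed, 86 moved and 12 reversed.

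For mAG+ against mKO2neg the class I log2 ratio, -0.16 as reported, was -0.066 with equal weight for each cell, -0.19 at 5000 counts per cell, -0.22 without the top cell of each gene, -0.19 without the deepest cells and -0.0038 from rows with the gene's own label. The class II ratio, -0.82, was -1.43 at 5000 counts, -1.23 with H2-Ab1 from the row labelled Gm20506 and reversed to 0.17 from own-label rows. For mKO2low against mKO2high class I, -0.59, was -0.53 at 5000 counts, -0.53 without the top cells, -0.51 without the mKO2high cell with most class II counts and -0.18 from own-label rows. Class II, -2.17, was -0.54 with equal weight, -0.55 at 5000 counts, -1.61 without the top cells, -1.06 without that mKO2high cell and -1.46 from own-label rows.

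For mKO2neg against mKO2low class I, 0.00, was -0.11 with equal weight, 0.060 without the top cells and 0.11 from own-label rows. Class II, -0.90, was -1.40 with equal weight and -0.38 with the row labelled Gm20506. For mAG+ against mKO2high class I, -0.75, was -0.70 at 5000 counts, -0.69 without the top cells, -0.79 without the deepest cells, -0.66 without that mKO2high cell and -0.069 from own-label rows. Class II, -3.89, was -3.01 with equal weight, -2.81 at 5000 counts, -3.34 without the top cells, -2.78 without that cell and -2.21 from own-label rows.

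Members that reversed at 5000 counts were Tap1 in mAG+ against mKO2neg, at -0.011, and in mAG+ against mKO2high, at -0.25. With equal weight they were Tapbp in mKO2low against mKO2high, at 0.12, Tapbp in mAG+ against mKO2high, at 0.025, and B2m in mKO2neg against mKO2low, at -0.0094. From own-label rows they were Tap1 at -0.063 and Ciita at 1.09 in mAG+ against mKO2neg, Tapbp at 0.74 in mKO2low against mKO2high, Cd74 at 1.02 and Ciita at -1.50 in mKO2neg against mKO2low, and Tap1 at -0.082 and Tapbp at 1.94 in mAG+ against mKO2high. Own-label rows hold the counts of other genes. The equal-weight value of B2m takes in mKO2neg cells with 1, 3, 46 and 59 counts, all at 0 for B2m. The shallowest mKO2low cell held 7436 counts. At 5000 counts per cell, which leaves such near-empty cells out, B2m was at 0.074 in mKO2neg against mKO2low. The class I sum of that pair was then at 0.029. Tapbp was at -0.24 in mKO2low against mKO2high and at -0.23 in mAG+ against mKO2high. The cause of moves other than those from own-label rows was not tested. The readings without that mKO2high cell and with the row labelled Gm20506 were chosen after seeing the data. Depth limits the class II genes most, with 158 counts of H2-Eb1 and 15 of Ciita in all. No paired analysis was possible because each gate is 1 sample.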
